A study of Mus musculus with 24 samples.

Results

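Common lymphoid progenitors (CLPs) that already lacked phospholipase C (PLC) γ1 were compared with and without additional loss of PLCγ2. Libraries were chosen by their labels as CLP libraries of genotype PLCγ1-/-PLCγ2-/- (double-deficient, n = 3) and of genotype PLCγ1-/-PLCγ2+/+ (PLCγ1-deficient, n = 3), which are 6 of the 24 RNA-seq libraries of the series. Both groups thus shared the PLCγ1 deletion, and the groups differed by the germline PLCγ2 deletion. The 6 CLP libraries of PLCγ1+/+PLCγ2+/+ and PLCγ1+/+PLCγ2-/- genotype entered the same statistical fit, and B cell progenitor libraries of both PLCγ1-/- genotypes were used for 1 comparison of populations.

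The floxed Plcg1 gene was deleted by Mx1-Cre, an interferon-inducible recombinase that acts in blood cells and in other tissues, after PolyI:C injection of adult mice of mixed 129xC57BL/6 background and both sexes. Bone marrow was then transplanted into lethally irradiated CD45.1+ recipients, and donor-derived CLPs (CD45.2+Lin-IL-7R+) were sorted from the recipients some weeks later. How many donor mice stood behind the 3 recipients of a genotype is not given in the sources used here, so p-values measure the spread between these libraries.

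PLCγ1 and PLCγ2 are receptor-activated enzymes that cleave a membrane lipid into IP3, which releases calcium, and diacylglycerol (DAG), which recruits protein kinase C and RasGRP proteins. PLCγ2 acts below the pre-B cell receptor and the B cell receptor, while PLCγ1 is best known below the T cell receptor. CLPs are lymphoid progenitors of the bone marrow that depend on IL-7 and give rise to B cells.

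Between 9837850 and 25117842 reads were assigned to genes in the 6 libraries, and 15209 genes passed the filter on low counts. CLP genes were detected in all 6 libraries, with Il7r at 133 to 429 and Flt3 at 46.5 to 438 CPM (normalized counts scaled to the library's total). Transcripts of other lineages were present as well, with Itgam at 83.4 to 148 and Cd3e at 1.81 to 17.3 CPM. Summed levels were 4470 to 12925 CPM for 17 neutrophil and monocyte genes and 3625 to 7969 CPM for 21 B lineage genes. The libraries numbered 2 stood apart from the others in both groups. Their summed level of 8 mast cell and basophil genes was 8667 and 8057 CPM, against 832 to 1580 CPM in the other 4 libraries, and none of the 8 was at 0 in all 6 libraries. Deviations from the group means had a mean correlation across genes of 0.47 between libraries of the same number. The mean of -0.23 between different numbers largely follows from that value, because deviations from a group mean cancel within the group. The replicate number was therefore also fitted as a block, and blocked values that change a call are given for many of the genes reported. In such bulk samples, fewer cells of a type and less RNA per cell cannot be told apart.

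To test the targeted genes, Plcg2 and Plcg1 were examined first. Plcg2 stood at 202, 226 and 233 CPM in the PLCγ1-deficient libraries and at 114, 95.1 and 115 CPM in the double-deficient libraries. Its 2 groups did not overlap, and the fitted log2 difference was -1.03 ± 0.16 (SE, adjusted p = 0.0826 by edgeR's quasi-likelihood test). The difference passed the threshold when the replicate number was fitted as a block with the 6 libraries alone (adjusted p = 0.00965), and did not with the 2 blocks fitted over 12 libraries (adjusted p = 0.0678 and 0.165). A gene count sums reads over the whole gene, so transcript that remains from a disrupted allele is counted too. Plcg1 stood at 70.4, 136 and 111 CPM in PLCγ1-deficient and at 87.3, 144 and 185 CPM in double-deficient CLPs, and the groups overlapped. Its log2 difference was 0.39 ± 0.26 (SE, unadjusted p = 0.167), and its count does not check the deletion that both groups carry. The mean Plcg1 level was 106 CPM in PLCγ1-deficient and 139 CPM in double-deficient CLPs, where the PLCγ1+/+ genotypes had means of 106 CPM with PLCγ2 and 93.4 CPM without.

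Of the 15209 genes tested, 4 passed an adjusted p of 0.05 together with an absolute log2 fold change of 0.5 in the unblocked fit (0.0263%). Serinc3, 2510009E07Rik, BC002163 and Gm5801 were these genes, of which Serinc3 fell and the other 3 rose in double-deficient CLPs. The median log2 difference over all genes was -0.03, and 54.9% of genes had a lower value in double-deficient CLPs, which is the background for the counts of lower genes given for lists. At an unadjusted p of 0.05, 353 genes were higher (2.32%) and 300 lower (1.97%).

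Serinc3, which encodes a multipass membrane protein of the serine incorporator family, stood at 1210, 1236 and 1225 CPM in PLCγ1-deficient CLPs. In double-deficient CLPs it stood at 429, 261 and 287 CPM, so that each double-deficient library lay below each PLCγ1-deficient one. Serinc3 fell by 1.91 on the log2 scale (SE 0.19, adjusted p = 0.00480), which is a 3.76-fold difference of the group means. The gene lies on chromosome 2 (chr2:163623273-163645149, mm10), 2.88 Mb from Plcg1 on the chromosome that carries the floxed Plcg1 allele in both groups. The nearby gene Pkig had a log2 difference of -1.02 and fell with the replicate block and 6 libraries (adjusted p = 0.00651). Pkig missed the threshold with the 2 blocks over 12 libraries (adjusted p = 0.548 and 0.560). 0610039K10Rik, which overlaps the end of Serinc3 and may share its reads, had a log2 difference of -1.71. Within 5 Mb of Plcg1, 103 genes were tested, of which 6 were lower and 3 higher at an unadjusted p of 0.05. Over all genes 1.97% were lower and 2.32% higher. The median log2 difference of the 103 genes was -0.05. Around Plcg2, 56 genes were tested, and the only one that reached this p was Plcg2 itself. Without double-deficient replicate 3, Serinc3 no longer passed (adjusted p = 0.0651).

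2510009E07Rik (chr16:21649045-21694665), a gene of unknown function, stood at 4.83, 7.80 and 8.41 CPM in PLCγ1-deficient CLPs and at 28.8, 57.1 and 62.1 CPM in double-deficient CLPs. It rose by 2.82 ± 0.38 on the log2 scale (SE, adjusted p = 0.0397). In the 6 PLCγ1+/+ libraries it lay between 4.93 and 11.1 CPM, so the double-deficient libraries were the only ones above that range. Its call held without double-deficient replicate 1 and was lost without any 1 of the other 5 libraries (adjusted p from 0.143 to 0.303).

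BC002163 stood at 0.954, 0.818 and 0.693 CPM in PLCγ1-deficient and at 7.14, 5.86 and 7.22 CPM in double-deficient CLPs. It rose by 3.02 ± 0.27 on the log2 scale (SE, adjusted p = 0.00294). Its PLCγ1+/+PLCγ2+/+ libraries held 5.14, 6.77 and 6.25 CPM and its PLCγ1+/+PLCγ2-/- libraries 4.62, 5.38 and 4.61 CPM. The PLCγ1-deficient group was thus the low one among the 4 genotypes. No single position of BC002163 was found in the RefSeq table, and reads shared with a near-identical copy would make its count uncertain.

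Gm5801 (chr14:56010292-56011480), annotated as a transcribed pseudogene, was counted 5, 7 and 1 times in the PLCγ1-deficient libraries and 56, 51 and 96 times in the double-deficient libraries. It rose by 3.78 ± 0.49 on the log2 scale (SE, adjusted p = 0.0397), a value that rests on these few reads. Its level was 2.97, 4.35 and 2.73 CPM in PLCγ1+/+PLCγ2+/+ CLPs and 0.171 to 0.356 CPM in PLCγ1+/+PLCγ2-/- CLPs. High and low groups therefore alternated across the 4 genotypes. As for 2510009E07Rik, the call of Gm5801 was lost without any 1 of 5 libraries (adjusted p from 0.135 to 0.303) and held without double-deficient replicate 1. It was also lost with a replicate block that kept the numbers of PLCγ1-/- and PLCγ1+/+ libraries apart (adjusted p = 0.056).

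**Figure D1:**
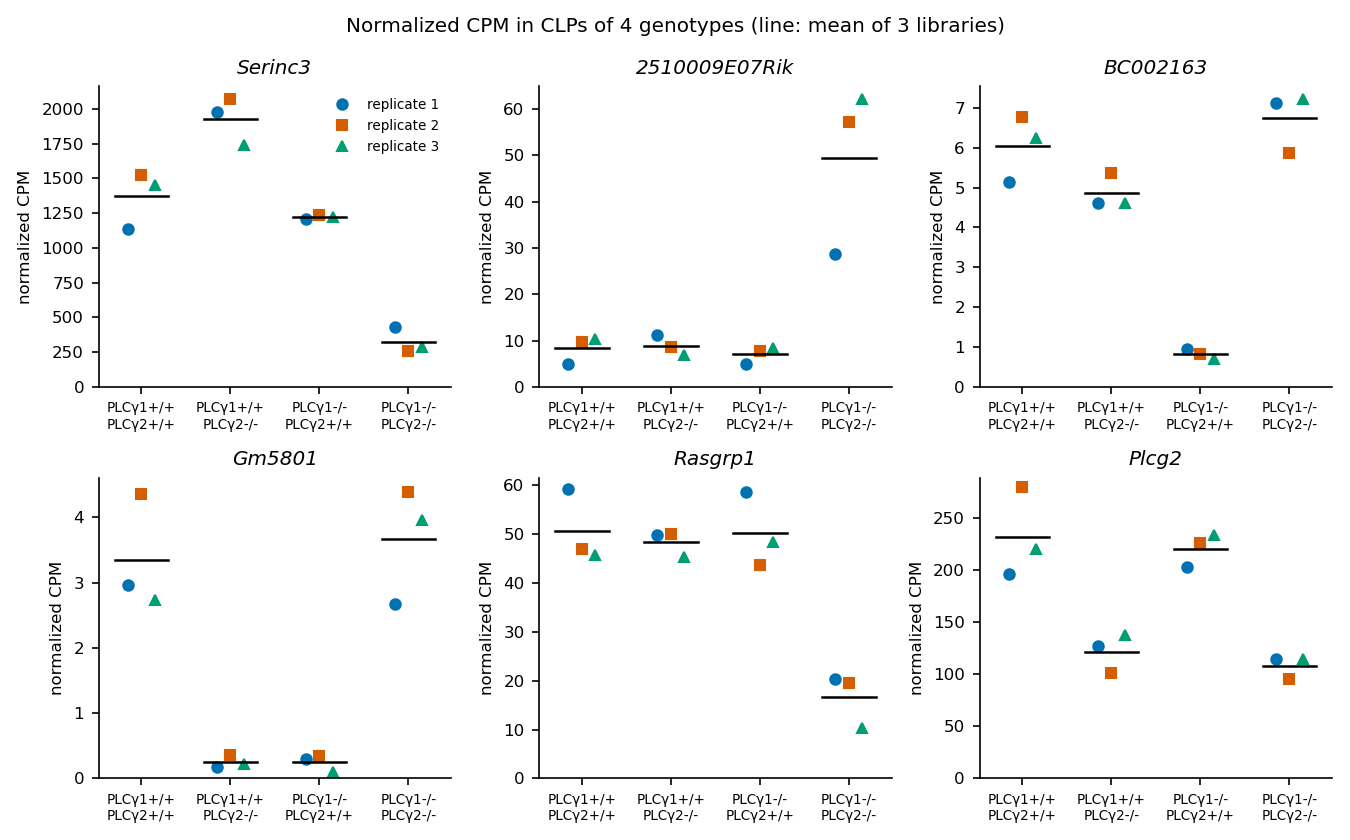
Normalized CPM (vertical axes) of 6 genes in CLPs of the 4 genotypes (horizontal axes), with 1 point per library, marked by replicate number, and a line at the mean of 3 libraries. Serinc3 and Rasgrp1 were lowest and 2510009E07Rik highest in the double-deficient libraries, while BC002163 was low in the PLCγ1-deficient libraries alone.

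When the fit of 12 libraries was blocked by replicate number, 17 genes rose (0.104%) and 3 fell (0.0184%). With the 6 libraries alone and the same block, 103 rose (0.706%) and 63 fell (0.432%). All 4 genes of the unblocked fit were among both sets, and all 20 genes of the former were among the 166 of the latter. In another blocked fit, over 12 libraries with the numbers of PLCγ1-/- and PLCγ1+/+ libraries kept apart, 6 genes rose (0.0368%) and 2 fell (0.0123%). These 8 were 2510009E07Rik, BC002163, H2-T10, Nkd2, Pcdh9, Zap70, Cd83 and Serinc3. They include 6 of the 20 genes, and the other 14 had adjusted p-values from 0.0527 to 0.0948 there. Genes outside these 20 and 8 missed the threshold in both blocked fits of 12 libraries. That holds also where a rise or fall with the block and 6 libraries is given for them. The block over 6 libraries was chosen after the data were seen, and without a block the same 6 libraries gave 0 calls. Without both libraries numbered 2, none of the 16292 genes tested passed in edgeR's unblocked fit, and 480 reached an unadjusted p of 0.05. Without double-deficient replicate 1, 18 genes passed, and without each of the other 5 libraries 1 or 2 passed.

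Rasgrp1 had the lowest p of the DAG branch. Rasgrp1, a DAG-binding exchange factor that activates Ras, stood at 58.7, 43.6 and 48.5 CPM in PLCγ1-deficient CLPs and at 20.3, 19.5 and 10.3 CPM in double-deficient CLPs. Its groups did not overlap, and its log2 difference was -1.59 ± 0.24 (SE, adjusted p = 0.0683). Rasgrp1 fell with the block over 12 libraries (adjusted p = 0.0138) and over 6 (0.0142), and missed the threshold with the numbers kept apart (0.056). In the PLCγ1+/+ genotypes it lay between 45.3 and 59.2 CPM, where the PLCγ1-deficient libraries lay between 43.6 and 58.7 CPM.

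Of the 12 RasGRP and DAG kinase genes, 2 were higher and 3 lower at an unadjusted p of 0.05. Over all genes 2.32% were higher and 1.97% lower, and the list median was -0.02. Rasgrp3, a B lineage relative of Rasgrp1, stood at 23.4, 14.3 and 13.6 CPM against 7.18, 5.86 and 9.78 CPM. Rasgrp2, the calcium-sensing family member, went the other way, from 255, 367 and 299 CPM to 366, 501 and 594 CPM. Dgka and Dgke encode kinases that remove DAG, and their log2 differences were 0.66 and -0.54. None of these 4 genes passed the adjusted threshold with or without the block. The 11 genes of the protein kinase C and D families held none at an unadjusted p of 0.05, and their log2 differences ranged from -1.19 in Prkd1, which was counted at under 1 CPM in every library, to 0.45 in Prkd2.

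In the calcium branch, among 18 genes for calcium entry, calcineurin and NFAT, none reached an unadjusted p of 0.05, and the values ran from -0.52 in Nfatc2 to 0.37 in Rcan1, a calcineurin inhibitor. Of the 17 genes of the CARMA1-BCL10-MALT1 complex and the IKK-NF-κB pathway, 14 had lower values in double-deficient CLPs, against 54.9% of all genes. Malt1, the protease of the complex, stood at 96.1, 87.2 and 88.7 CPM against 78.3, 58.4 and 65.0 CPM (unadjusted p = 0.00646). Relb, an NF-κB subunit, stood at 30.2, 25.6 and 28.7 CPM against 15.7, 18.4 and 21.6 CPM (unadjusted p = 0.00407). Chuk, which encodes the kinase IKKα, had a log2 difference of -0.31 with overlapping groups. The list held no adjusted call in the unblocked fit or either blocked fit.

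Among the 14 genes of the PLC family, Plce1 was the other gene at an unadjusted p of 0.05. Plce1 encodes a Ras-associated isoform and stood at 1.67, 0.481 and 4.16 CPM against 0.523, 0.431 and 0.578 CPM, with overlapping groups.

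MHC class II genes, which encode the antigen-presenting molecules of B cells, dendritic cells and macrophages, formed the list with the lowest median log2 difference of the 34 lists examined (-1.47). Of its 10 genes, 9 had lower values in double-deficient CLPs, against 54.9% of all genes. At an unadjusted p of 0.05, 6 were lower, where 1.97% of all genes were. In the same 6 genes the groups did not overlap, against 4.89% of all genes. None passed the adjusted threshold in the unblocked fit, and all 6 fell with the replicate block and the 6 libraries alone. None of the 6 passed with the block over 12 libraries (adjusted p from 0.0804 to 0.455) or with the numbers kept apart (0.0902 to 0.56).

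H2-Eb1, a class II β chain, stood at 163, 80.8 and 205 CPM in PLCγ1-deficient and at 51.9, 24.3 and 24.4 CPM in double-deficient CLPs. Its log2 difference was -2.15 ± 0.42 (SE, adjusted p = 0.198), and with the block and 6 libraries the adjusted p was 0.0148. H2-Aa, a class II α chain, stood at 213, 95.8 and 268 CPM against 84.8, 29.3 and 36.5 CPM. Both genes were lowest in libraries 2 and 3 of the double-deficient group.

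Cd74, the invariant chain that guides class II molecules, was the most abundant member in CPM, at 777, 370 and 759 against 310, 103 and 150. Ciita, the master coactivator of class II transcription, stood at 52.2, 17.5 and 41.7 CPM against 15.7, 6.55 and 5.78 CPM. H2-DMb2, a chain of the peptide editor H2-DM, stood at 28.8, 16.6 and 16.4 CPM against 8.33, 4.74 and 5.53 CPM. In each of these genes the ratio to the library of the same number was below 1 for all 3 numbers. H2-Ab1 stood at 258, 137 and 330 CPM against 116, 92.1 and 104 CPM, and its adjusted p in the blocked fit of 6 libraries was 0.0495. H2-Oa and H2-Ob, the chains of H2-DO, had log2 differences of -0.10 and 0.03 with overlapping groups.

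The sequences upstream of start sites of 3 class II genes with lower values are printed since genes of this family are known to share promoter elements bound by the partners of CIITA. Each is the 250 bases before 1 start site in RefSeq's GRCm38.p6 annotation, written 5′ to 3′ on the gene's strand, with CCAAT on either strand and the letters AGCAACNG of the X box core in capitals. H2-Eb1 is at chr17:34305617-34305866 on the plus strand, H2-Aa at chr17:34287824-34288073 on the minus strand and H2-DMb2 at chr17:34144999-34145248 on the plus strand. The H2-DMb2 window lies inside the annotated gene (chr17:34143229-34151553), ahead of a start site downstream of the gene's first base, while the other 2 windows adjoin their genes.
H2-Eb1: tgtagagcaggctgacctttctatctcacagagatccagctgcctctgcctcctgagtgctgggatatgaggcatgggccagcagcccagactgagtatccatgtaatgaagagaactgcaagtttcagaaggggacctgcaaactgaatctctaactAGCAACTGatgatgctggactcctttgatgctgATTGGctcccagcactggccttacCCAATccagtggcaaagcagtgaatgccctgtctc
H2-Aa: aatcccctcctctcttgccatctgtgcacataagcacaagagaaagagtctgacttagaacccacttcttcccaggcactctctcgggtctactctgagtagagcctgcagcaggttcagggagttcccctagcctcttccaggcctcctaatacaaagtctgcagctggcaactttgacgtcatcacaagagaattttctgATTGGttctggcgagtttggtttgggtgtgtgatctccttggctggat
H2-DMb2: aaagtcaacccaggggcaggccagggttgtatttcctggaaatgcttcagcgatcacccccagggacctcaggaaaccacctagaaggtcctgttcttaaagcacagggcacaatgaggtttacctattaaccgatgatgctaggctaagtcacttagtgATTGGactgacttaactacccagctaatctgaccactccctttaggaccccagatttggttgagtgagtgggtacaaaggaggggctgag
Windows were found for 7 of the 10 class II genes, and all 7 hold CCAAT, which 33.8% of the 32851 promoter windows hold. The longer Y box CTGATTGG, which contains CCAAT on the other strand, is in the windows of H2-Aa, H2-Eb1 and H2-Oa and in 3.83% of all windows. The X box core is in the H2-Eb1 window and in 4.14% of all windows. These are matches of letters, and H2-Oa holds the Y box with a log2 difference of -0.10.

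Lists of other class II-bearing cells overlapped between the groups. Macrophage genes summed to 196 to 261 CPM in PLCγ1-deficient and 201 to 249 CPM in double-deficient libraries, and dendritic cell genes to 781 to 1188 CPM and 705 to 1115 CPM. B lineage genes summed to 3625 to 5041 CPM in PLCγ1-deficient and 3698 to 7969 CPM in double-deficient libraries. The B lineage markers Cd22 and Ms4a1 stood at 59.3 to 158 and 38.1 to 180.1 CPM in PLCγ1-deficient libraries, and at 35.1 to 59.2 and 49.0 to 80.1 CPM in double-deficient libraries. Cd79a, a further marker, went the other way, at 289 to 442 CPM and 358 to 1184 CPM. The part of these lists and markers in the class II result was not tested.

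B lineage genes split in both directions. Of 21 genes, 6 were lower and 1 was higher at an unadjusted p of 0.05, where 1.97% and 2.32% of all genes were. None passed the adjusted threshold in the unblocked fit. With the block and 6 libraries, 5 fell and 2 rose, where 0.432% and 0.706% of all genes did. Of the 21 genes, 9 were lower for all 3 replicate numbers and 6 were higher for all 3, where 17.5% and 15.2% of all genes tested were.

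Among the genes on the lower side were Blk, Fcer2a, Fcmr, Cd72, Cd83 and Cr2, while Ms4a1, Syk and Lyn had ratios of both signs across the 3 numbers. Blk, a Src-family kinase of B cells, stood at 125, 110 and 82.3 CPM against 31.7, 30.4 and 18.1 CPM. Blk had a log2 difference of -1.99 ± 0.35 (SE, adjusted p = 0.108) and fell with the block over 12 libraries (adjusted p = 0.0427) and over 6 (0.00108), but not with the numbers kept apart (0.056). Fcer2a (CD23), the low-affinity IgE receptor, stood at 35.4, 13.6 and 11.2 CPM against 4.04, 0.603 and 1.07 CPM.

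Fcmr, the Fc receptor for IgM, stood at 52.4, 26.0 and 13.5 CPM against 5.71, 1.21 and 2.06 CPM. Cd72, an inhibitory coreceptor, stood at 196, 136 and 141 CPM against 66.6, 75.4 and 66.9 CPM. Cd83, an activation marker, stood at 11.7, 5.005 and 9.30 CPM against 2.05, 0.776 and 1.69 CPM. These genes and Fcer2a did not overlap between the groups and fell with the block and 6 libraries. Adjusted p-values there were 0.00390 for Fcmr, 0.0131 for Cd72, 0.00725 for Cd83 and 0.00261 for Fcer2a. With the block over 12 libraries they were 0.219, 0.478, 0.0678 and 0.0963, so none passed. With the numbers kept apart, Cd83 alone passed (adjusted p = 0.0298). Cr2, a complement receptor, had a log2 difference of -1.72 with overlapping groups.

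Surrogate light chain genes were on the higher side, and other B lineage genes were too. Log2 ratios to the library of the same number were 0.28, 1.65 and 1.33 for Vpreb3. They were 0.03, 0.89 and 1.02 for Blnk, and -0.62, 1.22 and 1.25 for Cd79b. Vpreb1 and Igll1 encode parts of the pre-B cell receptor. Vpreb1 stood at 83.5, 134 and 231 CPM in PLCγ1-deficient CLPs and at 204, 481 and 719 CPM in double-deficient CLPs. Igll1 stood at 139, 230 and 421 CPM against 290, 675 and 984 CPM. The groups overlapped in both genes, while each double-deficient library was above the PLCγ1-deficient library of the same number. Both rose with the block and 6 libraries (adjusted p = 0.00338 and 0.00725). Neither passed with the block over 12 libraries (0.0945 and 0.196) or with the numbers kept apart (0.223 and 0.387). Vpreb2 followed with 7.10, 17.4 and 29.6 CPM against 22.3, 54.5 and 86.4 CPM, and it also rose in the blocked fit of 12 libraries (adjusted p = 0.0165), though not with the numbers kept apart (0.0615).

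Cd79a, a signalling chain of the B cell receptor, was not called. It stood at 355, 289 and 442 CPM against 358, 808 and 1184 CPM. Double-deficient replicate 1 thus lay within the PLCγ1-deficient range, and replicates 2 and 3 lay above it. Cd79a was thus higher beside the surrogate light chain genes in replicates 2 and 3, and its part in that difference was not tested.

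**Figure D2:**
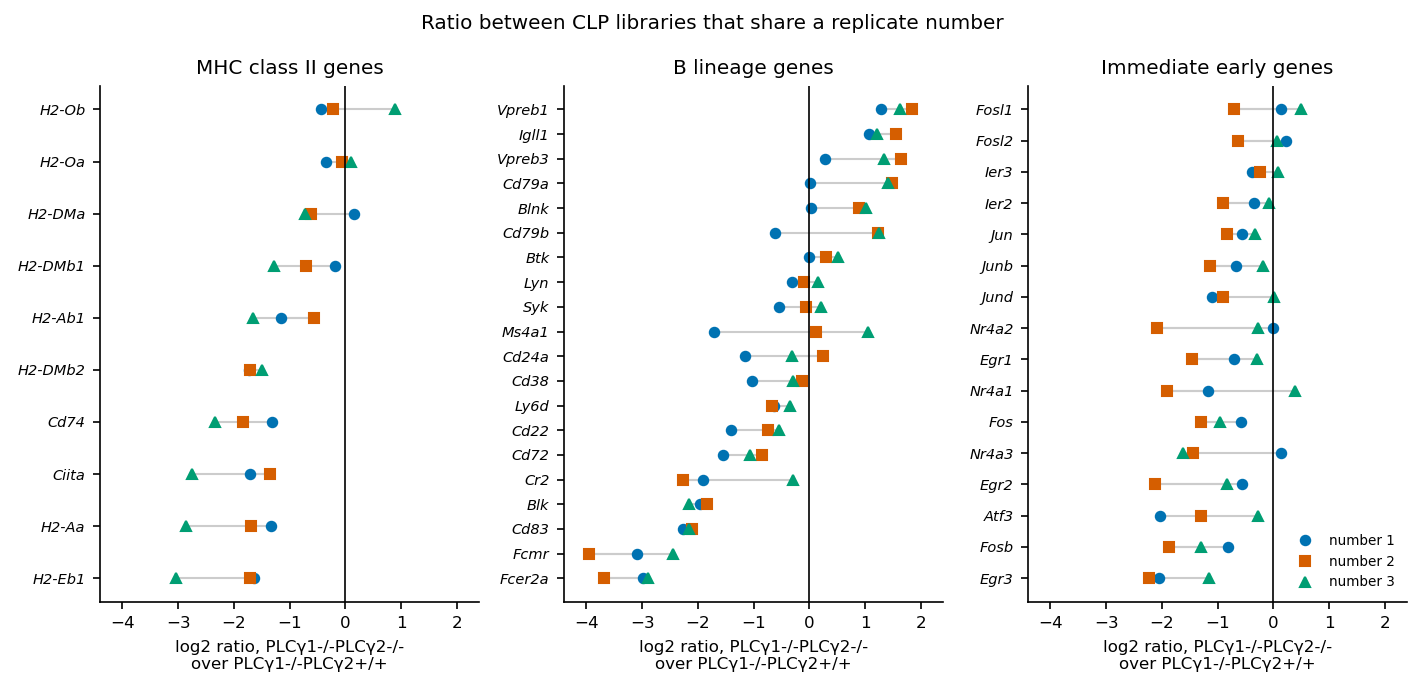
Log2 ratio (horizontal axes) of each double-deficient CLP library to the PLCγ1-deficient library of the same replicate number, after adding 0.5 CPM, for genes of 3 lists (vertical axes). Blk, Cd83 and Fcer2a were negative and Vpreb1 and Igll1 positive for all 3 numbers. Of the 10 class II genes, 7 were negative for all 3, where 17.5% of all genes tested were.

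Lymphoid specification factors had a median log2 difference of 0.05 over 20 genes. At an unadjusted p of 0.05, 2 were higher and 1 lower, where 2.32% and 1.97% of all genes were. None passed the adjusted threshold in the unblocked fit. Ikzf3 (Aiolos), a zinc finger factor of maturing B cells, stood at 215, 177 and 152 CPM against 94.7, 110 and 101 CPM, and it fell with the block and 6 libraries (adjusted p = 0.0380). Foxo1, which drives Rag and Il7r expression, stood at 144, 178 and 182 CPM against 150, 348 and 433 CPM. Lef1, a Wnt pathway factor of early lymphocytes, had overlapping groups and rose with the block and 6 libraries (adjusted p = 0.0248). Neither Ikzf3 (adjusted p = 0.176 and 0.379) nor Lef1 (0.563 and 0.661) passed with the 2 blocks over 12 libraries. Bcl11a, a factor needed for lymphoid progenitors, had a log2 difference of 0.58. The groups of Foxo1 and Bcl11a overlapped.

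V(D)J recombination genes held no member at an unadjusted p of 0.05 among 11. Rag1, which encodes the catalytic recombinase subunit, stood at 400, 392 and 363 CPM against 377, 819 and 867 CPM. As with Cd79a, replicates 2 and 3 of the double-deficient group were above the PLCγ1-deficient libraries and replicate 1 was not. Dclre1c (Artemis) had the lowest log2 difference of the list, -0.27.

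Among 18 genes of IL-7 receptor signalling, 2 were lower at an unadjusted p of 0.05, where 1.97% of all genes were. Neither passed the adjusted threshold. Socs1, a feedback inhibitor, fell with the block and 6 libraries (adjusted p = 0.0234) but with neither block over 12 libraries (0.644 and 0.488). Ccnd2, a cyclin induced by IL-7, stood at 165, 241 and 217 CPM against 145, 117 and 67.4 CPM. Pim2, a survival kinase, stood at 32.9, 44.8 and 36.6 CPM against 23.2, 28.4 and 21.3 CPM. Both genes had groups that did not overlap. Of 24 mTOR complex genes and regulators, Rptor (Raptor) alone reached an unadjusted p of 0.05, at 71.3, 102 and 91.7 CPM against 100, 134 and 161 CPM, with overlapping groups.

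T lineage genes had a median of -0.76 over 15 genes, with 13 on the lower side (54.9% of all genes were). Lat, an adaptor of the T cell receptor, had a log2 difference of 0.48. Zap70, a kinase of the same receptor that B progenitors can also express, stood at 11.9, 28.3 and 32.0 CPM against 46.5, 124 and 149 CPM. Its log2 difference was 2.15 ± 0.47 (SE, adjusted p = 0.292), and it rose with the block and 6 libraries (adjusted p = 0.000878). Cd2, an adhesion molecule, stood at 39.0, 23.6 and 25.3 CPM against 15.98, 9.31 and 13.95 CPM. Dtx1, a Notch-induced gene, stood at 11.3, 8.42 and 6.63 CPM against 3.19, 0.776 and 1.16 CPM. Cd2 and Dtx1 fell with the block and 6 libraries (adjusted p = 0.0181 and 0.0200).

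NK and innate lymphoid genes had a median of -0.73, with 13 of 15 genes lower (54.9% of all genes were) and none at an unadjusted p of 0.05. Their log2 differences ran from -1.09 in Prf1 (perforin) to 0.24 in Gzmb (granzyme B). The sum of this list was 311, 1270 and 537 CPM in PLCγ1-deficient and 364, 814 and 214 CPM in double-deficient libraries, so the groups overlapped.

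Immediate early genes are those that cells switch on within minutes of stimulation or handling. All 16 members had lower fitted values (54.9% of all genes did), with a median of -0.78. Their sum varied widely between replicate numbers, at 4025, 27860 and 9152 CPM in PLCγ1-deficient and 2529, 12344 and 6864 CPM in double-deficient libraries. For all 3 numbers the double-deficient library had the lower sum. Egr3, a zinc finger factor induced by antigen receptors, was the member at an unadjusted p of 0.05, with 11.4, 30.0 and 23.1 CPM against 2.38, 6.03 and 10.03 CPM. Egr3, Fos and Fosb fell with the block and 6 libraries (adjusted p = 0.0183, 0.0368 and 0.0249). With the 2 blocks over 12 libraries, Fos (adjusted p = 0.834 and 0.801) and Fosb (0.806 and 0.747) missed the threshold, as did Egr3. Of the 16 genes, 9 were lower for all 3 numbers, where 17.5% of all genes tested were.

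ERK feedback genes had 10 of 14 members on the lower side, against 54.9% of all genes. Spred2, a Ras inhibitor, was the gene at an unadjusted p of 0.05 and was higher, at 19.9, 35.9 and 21.2 CPM against 30.5, 43.3 and 55.9 CPM. Dusp1, a MAP kinase phosphatase, had the lowest log2 difference (-0.86) and fell with the block and 6 libraries (adjusted p = 0.0283). It missed the threshold with the 2 blocks over 12 libraries (adjusted p = 0.927 and 0.824).

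**Figure D3:**
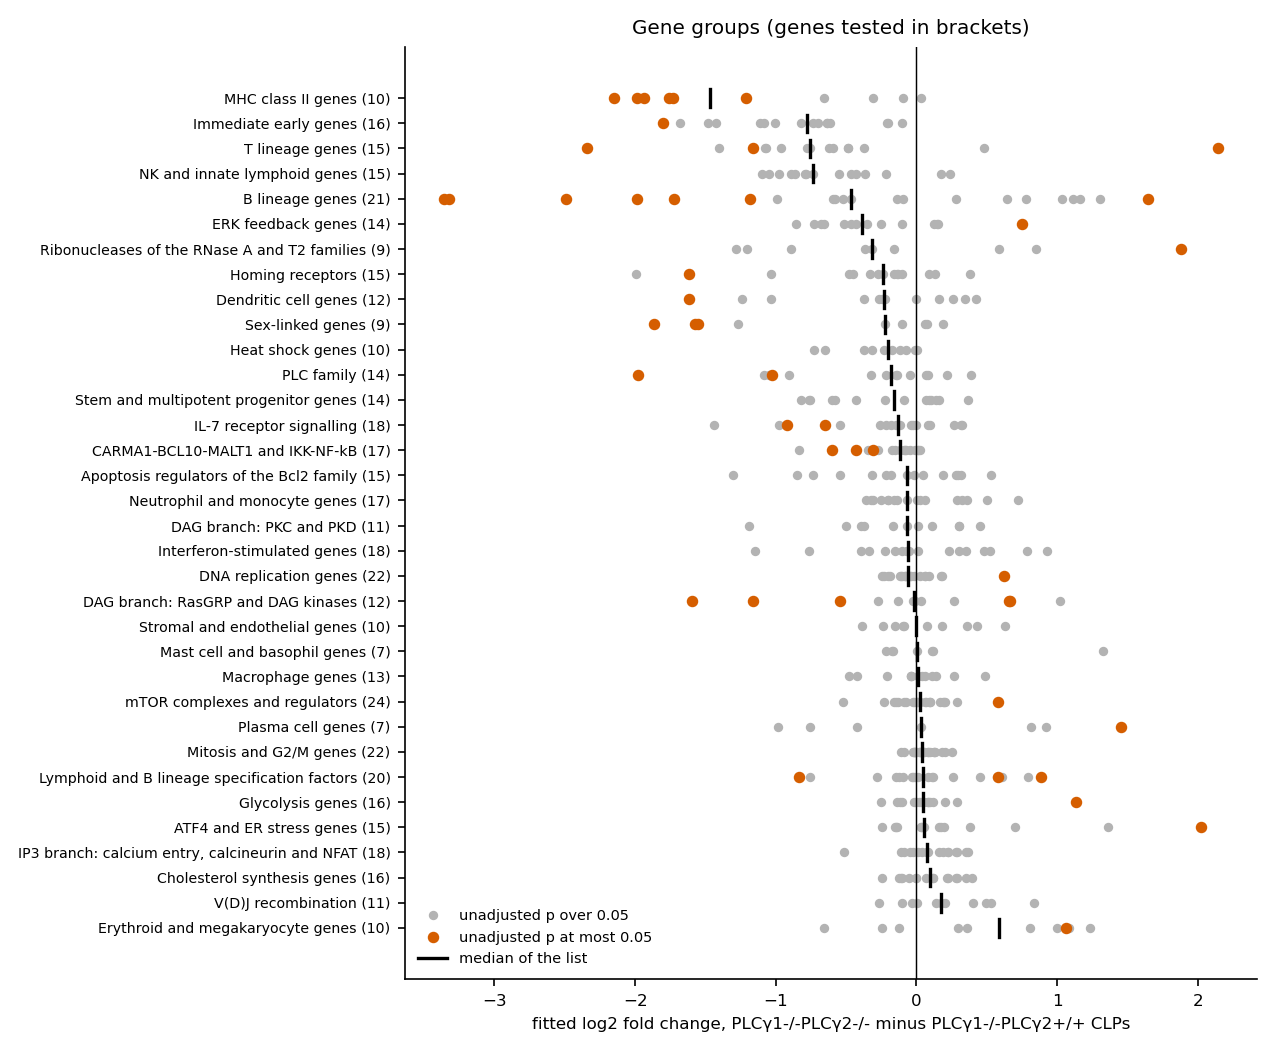
Fitted log2 fold change between double-deficient and PLCγ1-deficient CLPs (horizontal axis) for every tested gene of the 34 lists (vertical axis), with 1 point per gene, coloured where the unadjusted p was at most 0.05, and a line at the median. MHC class II genes have the lowest median (-1.47), and the B lineage genes spread from -3.36 to 1.65.

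Besides these lists, further genes with groups that did not overlap were named by their unadjusted p, among 648 such genes on the higher side (4.26% of all tested) and 744 on the lower side. Pcdh9, a protocadherin, stood at 4.71, 3.75 and 7.03 CPM against 39.6, 46.1 and 108 CPM. Its log2 difference was 3.66 ± 0.53 (SE, adjusted p = 0.0669), and it rose in all 3 blocked fits (adjusted p = 0.00128 with the block over 12 libraries). Cacna1i, a T-type calcium channel, stood at 31.8, 15.9 and 22.2 CPM against 114, 206 and 290 CPM, and it rose with the block and 6 libraries (adjusted p = 0.0116).

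H2-T10, a class I sequence annotated as a transcribed pseudogene, with close relatives that may share its reads, stood at 27.5, 33.5 and 42.4 CPM against 58.8, 85.5 and 98.3 CPM. It rose in all 3 blocked fits (adjusted p = 0.0138 with the block over 12 libraries). Fcrl6, Tmprss4 and A630023P12Rik rose with the block over 12 and over 6 libraries but not with the numbers kept apart, at unblocked log2 differences of 1.99, 3.49 and 2.68. Cabp4 and Fibcd1 had log2 differences of 2.39 and 3.88 and rose with the block and 6 libraries alone. Fibcd1 was counted 2, 1 and 3 times in the PLCγ1-deficient libraries, so its fold change rests on these few reads.

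On the lower side, Ccr7, a homing receptor of lymphocytes and dendritic cells, stood at 38.6, 38.3 and 23.6 CPM against 8.18, 12.5 and 12.1 CPM. Ccr7 fell with the block and 6 libraries (adjusted p = 0.0263), and so did C130046K22Rik (log2 difference -3.29) and Mir5107 (-2.26), which lies inside Cd74 and may share its reads. Zcchc18, on the X chromosome, had a log2 difference of -1.02 and passed in no blocked fit. The Y-linked genes Ddx3y, Eif2s3y and Uty were present in all 6 libraries, with log2 differences of -1.58, -1.55 and -1.87 and overlapping groups. The part of the sex of the mice in the other differences was not tested.

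The blocked fit of 12 libraries called further genes that the unblocked one did not, of which Nkd2 also passed with the numbers kept apart. Nkd2, an inhibitor of Wnt signalling, stood at 2.504, 6.30 and 10.2 CPM against 15.3, 52.2 and 61.6 CPM (adjusted p = 0.00818 with the block). Adgrf1, an adhesion receptor, stood at 0.716, 0.722 and 1.19 CPM against 7.14, 14.05 and 19.7 CPM (adjusted p = 0.0165 with the block). Enpep (BP-1), a surface peptidase of pre-B cells, stood at 36.6, 27.5 and 93.8 CPM against 123, 327 and 424 CPM (adjusted p = 0.0205 with the block). Mmrn1, Scn4b, Crip2, Cdhr2 and Arhgap10 rose as well, and Serinc3, Rasgrp1 and Blk were the 3 genes that fell. Adgrf1, Enpep, Mmrn1, Scn4b, Crip2, Cdhr2 and Arhgap10 missed the threshold with the numbers kept apart.

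To ask whether the effect of PLCγ2 loss depended on PLCγ1, the difference between double-deficient and PLCγ1-deficient CLPs was set against that between PLCγ1+/+PLCγ2-/- and PLCγ1+/+PLCγ2+/+ CLPs, which share no library with it. The 2 differences differed in 3 of 15209 genes (0.0197%), which were Gm5801, BC002163 and Serinc3. Serinc3 was -1.91 without PLCγ1 and 0.49 with it, a difference of -2.40 (adjusted p = 0.00851 by edgeR's quasi-likelihood test). Plcg2 itself was -1.03 without PLCγ1 and -0.93 with it. Rasgrp1 was -1.59 without and -0.06 with PLCγ1, and the test of that difference did not pass (adjusted p = 0.801). H2-Eb1 was -2.15 without and 0.03 with PLCγ1 (adjusted p = 0.862). Over the 10 class II genes the median was -1.47 without and 0.11 with PLCγ1.

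**Figure D4:**
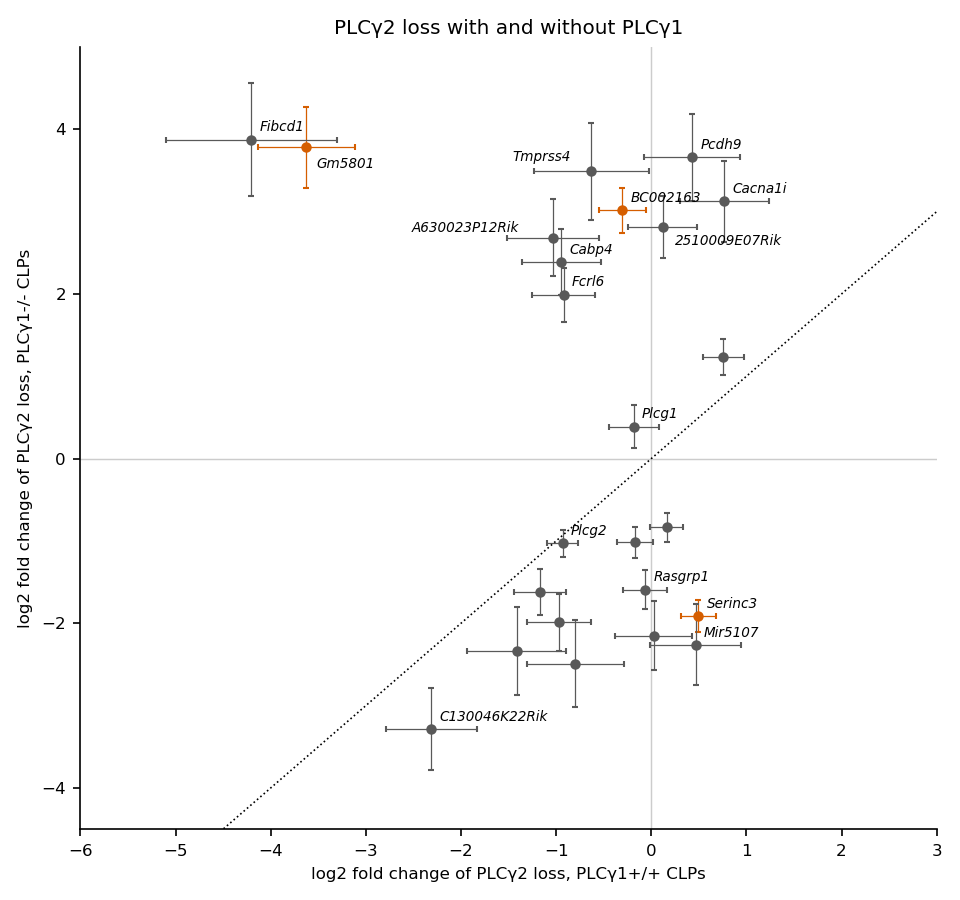
Fitted log2 fold change of PLCγ2 loss in PLCγ1+/+ CLPs (horizontal axis) and in PLCγ1-/- CLPs (vertical axis) for Plcg1, Plcg2 and genes named for their p-values, with bars of 1 SE and equal values on the dotted line. The 3 coloured genes, Gm5801, BC002163 and Serinc3, passed the test of the difference, and Plcg2 (-1.03 and -0.93) lies near the dotted line.

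The same genotypes were then compared in B cell progenitors (B220+IgM-IL-7R+) sorted from the same mice. Reads on no gene took 66.5, 87.3 and 73.6% in PLCγ1-deficient and 61.4, 60.3 and 63.0% in double-deficient B cell progenitor libraries. In the CLP libraries compared they took 17.9% to 33.8%. Reads assigned to genes ran from 2858724 to 25057223 in these B cell progenitor libraries, and the part of these differences was not tested. With the mouse as a block, none of 16435 genes differed between the populations in the effect of PLCγ2 loss (0%) by edgeR's quasi-likelihood test, and none did by DESeq2. At an unadjusted p of 0.05 the counts were 359 and 484. Serinc3 had log2 differences of -1.91 in CLPs and -1.68 in B cell progenitors, and Rasgrp1 of -1.59 and -2.59. Blk had -1.99 and -1.98, Vpreb1 1.65 and 1.63, and Pcdh9 3.66 and 2.49. The class II median was -1.47 in CLPs and -1.26 in B cell progenitors. Gm5801 had 3.78 in CLPs and 0.99 in B cell progenitors. A p that misses the threshold does not show that the populations responded alike.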

How the data were processed

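RNA was extracted from sorted bone marrow populations and sequenced as poly(A)+ libraries. Alignment by the authors used STAR (version 2.5.0a) and the mm10 genome, and the deposited values were whole-number counts of reads per gene, 1 table per library with 24421 genes. The counting program and its use of strand are not given in the sources used here. Reads on no gene and ambiguous reads were left out of library sizes. In the 6 CLP libraries compared, reads on no gene took 17.9% to 33.8% of a table and ambiguous reads 1.19% to 1.44%.

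Counts were scaled by TMM and tested with edgeR's quasi-likelihood test (edgeR 4.0.16, R 4.3.3) in 1 fit of the 12 CLP libraries, after filterByExpr with a minimum count of 10. All p-values in the report come from this test unless another tool is named, and adjustment was by Benjamini-Hochberg over all genes tested. A gene was called where its adjusted p did not exceed 0.05 and it moved by 0.5 or more, up or down, on the log2 scale. DESeq2 1.42.0 and limma 3.58.1 were alternatives. Same-numbered libraries had correlated deviations (r from 0.37 to 0.64), so the numbers were taken to pair them. The named genes were Plcg1, Plcg2, every called gene, 12 higher and 12 lower genes of smallest unadjusted p without overlap of the groups, and in each list the genes at an unadjusted p of 0.05 or, where none, those at both ends. Some genes that the rule gives are not reported here. Others were named from the blocked fits or as markers after their values were seen. Members, lists and tests were chosen with earlier results of these data known.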

Additional observations from a re-analysis of the deposited data

Results flagged for a closer look

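In 3 genes the effect of PLCγ2 loss in PLCγ1-/- CLPs differed from that in PLCγ1+/+ CLPs by edgeR's test of the difference between them. Gm5801 differed by 7.41 on the log2 scale (adjusted p = 0.00548), as it was 3.78 in PLCγ1-/- and -3.63 in PLCγ1+/+ CLPs, with at most 7 reads in each PLCγ1-deficient library. BC002163 differed by 3.32 (adjusted p = 0.00851), as it was 3.02 and -0.30. Serinc3 differed by -2.40 (adjusted p = 0.00851), as it was -1.91 and 0.49. The cause of these differences was not tested.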

How the results depend on the processing

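The number of called genes was 4. It was 7 without the filter on low counts, 89 with DESeq2, 9 with limma-voom, 1 with counts thinned to the smallest library and 0 with the 2 groups alone. With the replicate block it was 20 over 12 libraries, 166 over 6 libraries and 8 with the numbers kept apart by PLCγ1 genotype. It was 0 without both libraries numbered 2, and 1 to 18 when 1 library was left out. The block over 6 libraries, the block with numbers kept apart and the fit without both libraries numbered 2 were chosen after seeing the data. The count at an unadjusted p of 0.05, which was 653, became 1048, 1717 and 1019 with the 3 replicate blocks and 1467 with limma-voom. The count of genes that differed between PLCγ1 backgrounds was 27 with DESeq2, 9 with the replicate block and 1 to 4 with 1 library left out. Plcg2 passed with DESeq2 (-1.03), limma-voom (-1.10) and the block over 6 libraries (-1.03).

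Serinc3 lost its call with the 2 groups alone (adjusted p = 0.213), without double-deficient replicate 3 (0.0651) and without both libraries numbered 2 (0.138). BC002163 lost it in the first and last of these and with thinned counts (0.0944). Gm5801 and 2510009E07Rik lost it with the 2 groups alone (both 0.213), thinned counts (0.175 and 0.0944), without both libraries numbered 2 (both 0.606) and without any 1 library other than double-deficient replicate 1. Gm5801 also lost it with limma-voom (0.0505) and with the numbers kept apart (0.056).

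Over 89 named genes, 1281 of 1417 values kept direction and side of the threshold, and 22 in 10 genes, all with an unadjusted p over 0.05, changed sign. With limma-voom Cma1 was -0.046, Il1rl1 0.28, Col3a1 -0.11 and Pdgfrb 0.0097, and Pdgfrb was 0.30 without both libraries numbered 2. Hsp90ab1 was -0.023 with thinned counts, -0.0019 with the block over 6 libraries and -0.025 without both libraries numbered 2. With 1 library left out, Nfatc2 ran from -0.86 to 0.048, Gzmb from -0.15 to 0.58, Ltf from -0.23 to 1.14, Elane from -0.89 to 0.29, Cma1 from -0.39 to 1.91, Il1rl1 from -1.21 to 0.96, Col3a1 from -0.46 to 1.02, Pdgfrb from -0.77 to 0.46, Rsad2 from -0.042 to 1.28 and Hsp90ab1 from -0.062 to 0.11. Apart from the removal of samples or reads, the cause was not tested. Low counts limit Gm5801, BC002163 and Fibcd1, among others. Tmprss4 stood at 0.417 to 0.818 CPM and Cdhr2 at 0.144 to 1.19 CPM in PLCγ1-deficient libraries. C130046K22Rik stood at 0.190 to 0.372 CPM in double-deficient libraries.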

Other observations

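Further gene groups were measured in the same comparison. Of 22 DNA replication genes, Tyms (thymidylate synthase) was the one at an unadjusted p of 0.05 in edgeR's test, and its levels were 74.5, 75.6 and 94.6 CPM in PLCγ1-deficient and 113, 125 and 140.0 CPM in double-deficient CLPs. Tyms rose with the replicate block and 6 libraries (adjusted p = 0.0313). Of 22 mitosis genes none reached that p, and their log2 differences lay between -0.11 in Prc1 and 0.26 in Plk1.

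Mzb1, an endoplasmic reticulum protein of B and plasma cells, stood at 98.7, 83.4 and 140.0 CPM against 159, 290 and 433 CPM and rose with the block and 6 libraries (adjusted p = 0.0313). Rnase12, a member of the RNase A family, stood at 7.57, 11.3 and 5.94 CPM against 15.9, 35.3 and 40.5 CPM and rose in the same fit (adjusted p = 0.0394). The groups of Tyms, Mzb1 and Rnase12 did not overlap. Epor, the erythropoietin receptor, stood at 5.31, 4.57 and 4.35 CPM against 15.7, 5.601 and 8.46 CPM and was not called in that fit.

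Eno1 and Chac1 were the genes at an unadjusted p of 0.05 among 16 glycolysis and 15 ATF4 and ER stress genes, at log2 differences of 1.13 and 2.02 and under 5 CPM in every library. No gene at that p was found among the stem cell, neutrophil, macrophage, mast cell, stromal, apoptosis, interferon and heat shock lists. Their highest and lowest members were Cd93 (0.36) and Ly6a (-0.82), Ltf (0.72) and Elane (-0.36), Hmox1 (0.49) and Vcam1 (-0.48), Cma1 (1.32) and Il1rl1 (-0.21), Col3a1 (0.63) and Pdgfrb (-0.39), Bmf (0.53) and Bcl2a1b (-1.31), Rsad2 (0.93) and Cxcl10 (-1.14), and Hsp90ab1 (0.0046) and Hspa1b (-0.72).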
